A study of Mus musculus with 6 samples.

Results

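The mitochondrial carrier family (solute carrier family 25, gene symbols beginning with Slc25a) was followed in total RNA of mouse optic nerve. Members were all genes of the deposited gene table with the biotype protein coding and a symbol starting with Slc25a, which gave 47 of the 52636 genes listed. The mCherry group, labelled with the name of a red fluorescent protein, and the hND6 group, with the treatment label Mutant human ND6T14484C, held 3 libraries each. Mitochondrial DNA normally encodes ND6, which is part of respiratory complex I. Per the labels' protocols, a lentivirus holding the mutant human gene was injected into the eyes. That text stands beside both groups, so what the mCherry eyes received is known only from the group label. The strain, age, time after injection and animals per library were not given in the sources used here. The p-values below measure the spread between libraries alone, and some of that spread may be technical.

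Most carriers of this family are small proteins that sit in the inner mitochondrial membrane and exchange metabolites between cytosol and matrix. They return ATP to the cytosol for ADP, bring in the phosphate that ATP synthase needs, and move amino acids, carboxylic acids, cofactors and iron. Their genes lie in the nucleus. The optic nerve holds the axons of retinal ganglion cells and the oligodendrocytes, astrocytes and microglia around them. Markers of these glia were abundant: the astrocyte gene Gfap stood at 907 to 1619 FPKM over the 6 libraries, and all 6 oligodendrocyte genes were above the filter on low values.

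Levels are FPKM, fragments scaled by exon length and by a size factor of each library. They can be compared between genes because they are per length. Reads assigned to genes, recovered from the values, ran from 20253637 to 34758873 per library. Cell markers were uneven. Summed FPKM in mCherry and hND6 ran from 4478 to 6723 and from 6394 to 7424 for the 6 oligodendrocyte genes, from 1452 to 1981 and from 2023 to 2452 for the 6 astrocyte genes, and from 98.1 to 122 and from 137 to 156 for the 5 microglia genes. These sums are weighted to the most abundant genes, such as Gfap. Taken singly, 1 oligodendrocyte gene, 3 astrocyte genes and 4 microglia genes stood higher in hND6 without overlap, beside 12.6% of all genes tested. The groups overlapped in the other genes of these lists, among them Aldh1l1, Slc1a3, Aqp4 and Mobp. The 7 B and plasma cell genes summed to between 7.10 and 17.2 FPKM in mCherry and between 52.8 and 162 FPKM in hND6, and 2 of them, Igha and Jchain, rose past the threshold used below (limma adjusted p = 0.0169 and 0.0226). The 7 photoreceptor genes summed to 194 FPKM in hND6 2 and to 6.53 FPKM or less in each other library. The part of these markers in the family's levels was not tested, and in bulk RNA fewer cells of a type and less RNA per cell cannot be told apart. Of the 47 members, 41 averaged 0.5 FPKM or more across the libraries and were tested, and in all 41 both group means lay above that value. The fold changes below are hND6 minus mCherry on the log2(FPKM + 0.5) scale, from limma's moderated test over 16157 genes, with Benjamini-Hochberg adjustment over all of them and a threshold of 0.05.

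No member passed the threshold in either direction. Over all genes tested, 0.0433% passed as higher in hND6 and 0% as lower. At an unadjusted limma p under 0.05, 4 members stood higher (Slc25a1, Slc25a4, Slc25a39 and Slc25a20) and 1 lower (Slc25a26), beside 9.11% of all genes higher and 6.05% lower. Voom on recovered reads also called 0 members, with 5 at an unadjusted p under 0.05. Groups did not overlap for 7 members that stood higher and 3 that stood lower, 17.1% and 7.32% of the 41, where all genes gave 12.6% and 10.2%. Fold changes lay above 0 for 20 members and below it for 21, and their median was -0.00271, where the median of the 16157 genes was -0.0102. With FPKM rescaled to a constant sum per library (TPM), which moved the median of all genes to -0.15, 11 of the 41 lay above 0, and groups did not overlap for 4 members on the higher side and 8 on the lower (9.76% and 19.5%), where all genes on that scale gave 5.37% and 18.9%.

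**Figure D1:**
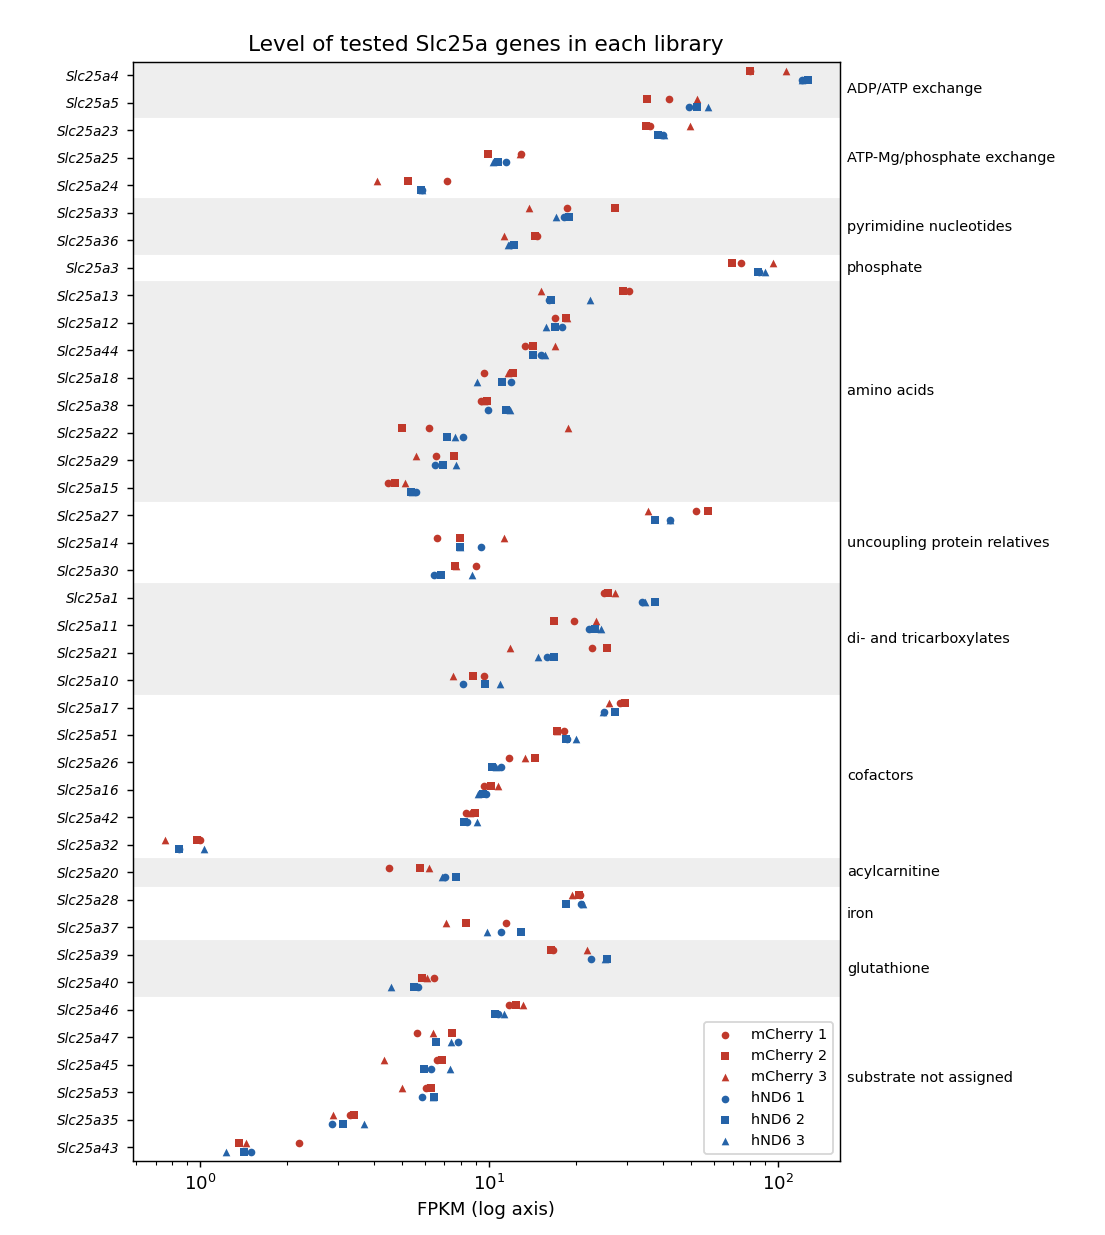
FPKM of 40 of the 41 tested Slc25a genes on a log axis, 1 point per library, with mCherry in red and hND6 in blue and genes grouped by what they carry. The ADP/ATP carrier Slc25a4 and the phosphate carrier Slc25a3 stand highest, and the hND6 points of most genes lie closer together than the mCherry points.

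Levels within the family spanned a wide range. The mean of Slc25a4, 106 FPKM, was 117 times that of Slc25a32, 0.906 FPKM. Of the tested members 24 averaged over 10 FPKM and 3 under 5 FPKM, and the median member mean was 11.4 FPKM beside 7.996 FPKM for all genes tested. Summed over the family, mCherry libraries held 713, 717 and 757 FPKM and hND6 libraries 763, 772 and 786 FPKM. The hND6 sums were all above the mCherry sums, yet as a share of all FPKM the order did not hold: 0.185 ± 0.00969% in mCherry and 0.177 ± 0.00470% in hND6 (SD, n = 3 each). Slc25a4, Slc25a5 and Slc25a3 together made up 29.0 ± 4.14% of the family sum in mCherry and 34.0 ± 0.360% in hND6. These shares overlapped, with 33.68% in mCherry 3 and 33.61% in hND6 1.

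Nucleotide carriers came first by abundance. Slc25a4 encodes ANT1, the ADP/ATP carrier of heart, muscle and brain (chromosome 8 of the mouse build GRCm38, 46206797 to 46211284, minus strand). It stood at 80.1, 80.2 and 107 FPKM in mCherry replicates 1 to 3 and at 121, 127 and 121 FPKM in hND6 replicates 1 to 3. All hND6 values lay above all mCherry values, and the mCherry 3 value lay closest to them. The log2 fold change was 0.48 ± 0.13 (SE; 95% interval 0.17 to 0.79; limma adjusted p = 0.207). Without mCherry 3 it was 0.61 ± 0.07 and passed (limma adjusted p = 0.0437), the only member to pass in any of the 20 other settings tried. Calls rose over the whole data without mCherry 3: 131 of 16035 genes passed, where 7 of 16157 passed with all libraries. Other settings lowered the Slc25a4 fold change: it was 0.41 without mCherry 1 (limma adjusted p = 0.329). After quantile normalisation it was 0.32 (limma adjusted p = 0.433), and on the constant-sum scale 0.33 (limma adjusted p = 0.256). Leaving out mCherry 3 and hND6 1 together gave 0.62 (limma adjusted p = 0.0905), and mCherry 3 with hND6 2 gave 0.59 (limma adjusted p = 0.228); these pairs were picked with the values known. The 7 skeletal muscle markers summed to between 3.33 and 5.996 FPKM in mCherry and 2.97 and 3.98 FPKM in hND6, and 2 of them, Tnnt3 and Mylpf, reached the filter on low values.

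Slc25a5 encodes ANT2, the ADP/ATP carrier of dividing and many other cells (chromosome X, 36795651 to 36798807). Its values were 42.0, 35.3 and 52.6 FPKM in mCherry and 49.4, 52.6 and 57.3 FPKM in hND6. The groups overlapped through mCherry 3, and the log2 fold change was 0.31 ± 0.15 (limma adjusted p = 0.391). It ran from 0.17 without mCherry 2 to 0.46 without mCherry 3, and was 0.0865 with the trend over gene span removed from every library. Slc25a31, the ADP/ATP carrier of the testis, had 12 reads in mCherry and 13 in hND6 and was too low to test. Slc25a4 thus supplied 67.3 ± 1.98% of ADP/ATP carrier FPKM in mCherry and 69.8 ± 1.74% in hND6, shares that overlapped. Slc25a5 has 2 near-identical gene copies in the annotation, Gm5529 and Gm5560, at 96.8% and 98.3% identity over 72.6% and 71.5% of its transcript, and neither exceeded 0.735 FPKM in any library. The handling of reads that match a copy equally well was not given in the sources used here, so the level of Slc25a5 is uncertain.

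The ATP-Mg/phosphate carriers, which shift the total adenine nucleotide pool in answer to calcium, showed no common direction. Slc25a23, the most abundant of them, stood at 36.1, 34.9 and 49.8 FPKM in mCherry and 40.1, 38.6 and 40.3 FPKM in hND6. The hND6 values fell between those of the mCherry libraries, and the 95% interval of the log2 difference ran from -0.35 to 0.34. Slc25a25 stood at 12.9, 9.92 and 12.8 FPKM in mCherry and 11.5, 10.7 and 10.3 FPKM in hND6, a log2 fold change of -0.12 ± 0.12. Slc25a24 stood at 7.14, 5.23 and 4.10 FPKM in mCherry and 5.86, 5.79 and 5.85 FPKM in hND6, with the hND6 libraries inside the range of the mCherry libraries. Slc25a41, the member without calcium-binding motifs, had 0 reads in mCherry and 6 in hND6. No fold is given for so few reads.

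The pyrimidine nucleotide carriers Slc25a33 and Slc25a36 supply building blocks for mitochondrial RNA and DNA. Slc25a33 stood at 18.6, 27.2 and 13.7 FPKM in mCherry and 18.2, 18.9 and 17.1 FPKM in hND6 (log2 fold change -0.08 ± 0.23). Slc25a36 stood at 14.6, 14.4 and 11.3 FPKM in mCherry and 11.9, 12.2 and 11.7 FPKM in hND6 (log2 fold change -0.16 ± 0.12). The groups overlapped in both genes, and mCherry 3 held the lowest value of all 6 libraries in each.

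The phosphate carrier Slc25a3 brings inorganic phosphate into the matrix for ATP synthesis (chromosome 10, 91116574 to 91124059, minus strand). It was the second most abundant member, at 74.9, 69.3 and 96.0 FPKM in mCherry and 86.1, 85.2 and 90.1 FPKM in hND6. The highest library was mCherry 3 and the other mCherry libraries were the lowest, so the groups overlapped. The log2 fold change was 0.14 ± 0.13, with a 95% interval of -0.18 to 0.45 (limma adjusted p = 0.662). On the constant-sum scale it was -0.00923.

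**Figure D2:**
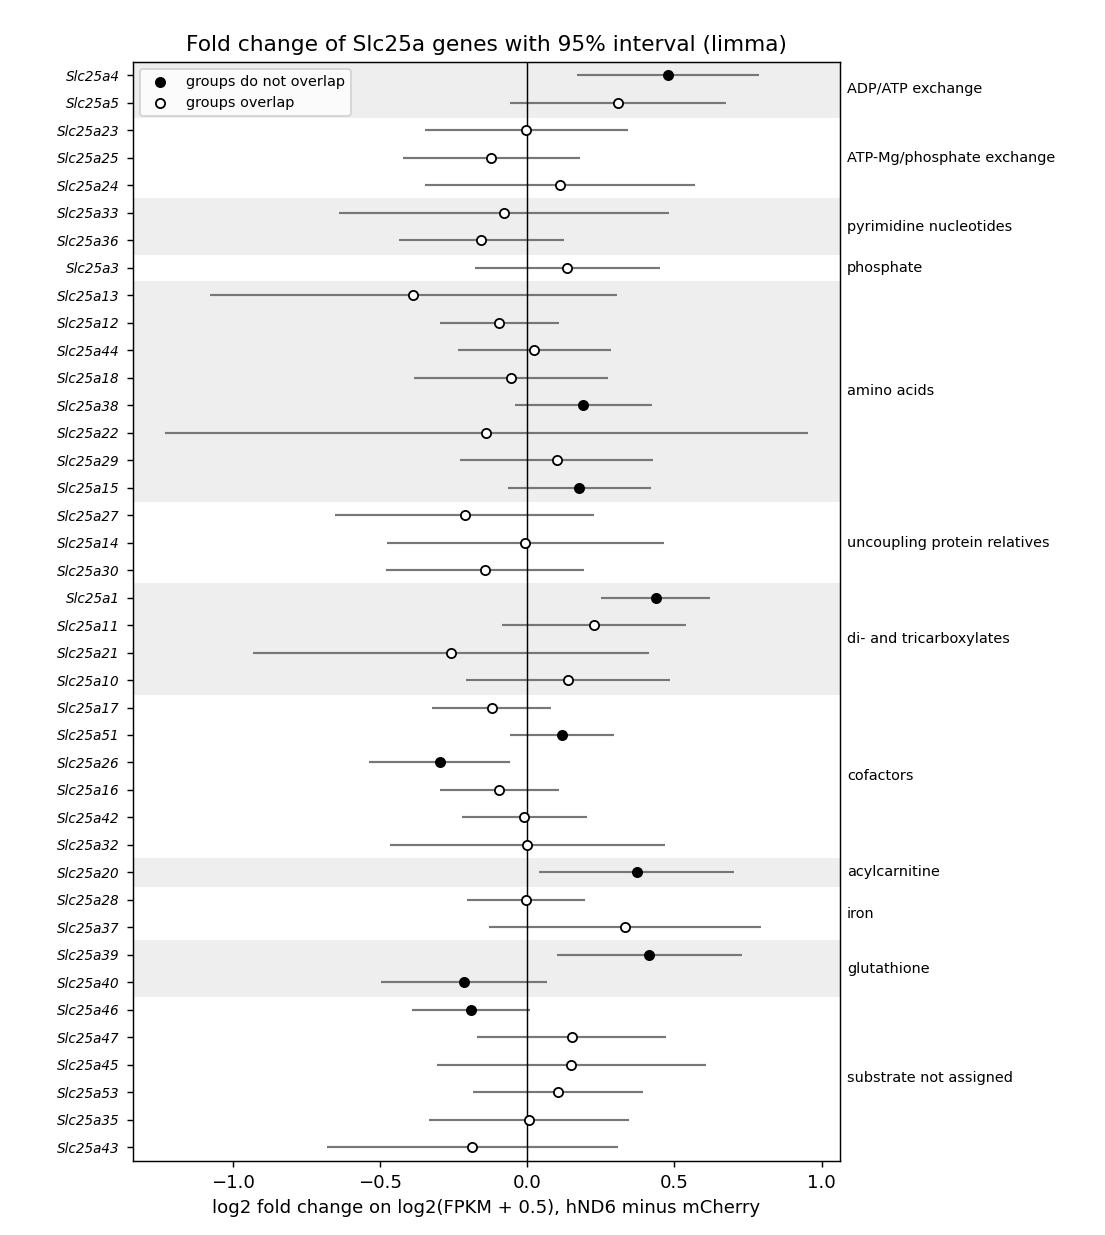
Log2 fold change of 40 of the 41 tested Slc25a genes, each with its 95% interval from limma, on the log2(FPKM + 0.5) scale, filled where the 3 hND6 values do not overlap the 3 mCherry values. Slc25a4, Slc25a1, Slc25a39 and Slc25a20 have intervals above 0 and Slc25a26 one below 0; none passed the adjusted threshold.

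Amino acid carriers split evenly, with 4 of 8 tested members on each side of 0 (median log2 fold change -0.02) and none past the threshold. The aspartate/glutamate carriers Slc25a12 (aralar) and Slc25a13 (citrin) work in the malate-aspartate shuttle, which moves reducing power into mitochondria. Slc25a12 stood at 17.0, 18.5 and 18.6 FPKM in mCherry and 17.9, 16.9 and 15.8 FPKM in hND6 (log2 fold change -0.09 ± 0.08). Slc25a13 stood at 30.5, 29.1 and 15.1 FPKM in mCherry and 16.2, 16.4 and 22.3 FPKM in hND6. Citrin was thus high in mCherry 1 and 2 and lowest in mCherry 3, and its log2 fold change of -0.39 ± 0.29 (limma adjusted p = 0.565) went to -0.71 without mCherry 3 (limma adjusted p = 0.0884). It was -0.21 without mCherry 1 and -0.24 without mCherry 2. Slc25a12 made up 35.7, 38.8 and 55.2% of the FPKM of this pair in mCherry and 52.6, 50.8 and 41.4% in hND6.

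Of the glutamate carriers, Slc25a22 varied most. It stood at 6.19, 5.01 and 18.8 FPKM in mCherry and 8.09, 7.14 and 7.59 FPKM in hND6, so that mCherry 3 stood far above every other library. The 11 neuron markers summed to 55.6, 35.6 and 769 FPKM in mCherry and 268, 39.9 and 78.1 FPKM in hND6, and each of the 11 was highest in mCherry 3. Their part in the Slc25a22 level was not tested. The log2 fold change of Slc25a22 was -0.14 ± 0.45 with all libraries and 0.42 ± 0.13 without mCherry 3 (limma adjusted p = 0.906 and 0.144). It was -0.35 without mCherry 1 and -0.49 without mCherry 2. Slc25a18, the other glutamate carrier, stood at 9.64, 12.1 and 11.6 FPKM in mCherry and 11.9, 11.1 and 9.11 FPKM in hND6, with overlapping groups.

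Slc25a38 imports glycine for the first step of heme synthesis. It stood at 9.36, 9.84 and 9.62 FPKM in mCherry and 9.90, 11.5 and 11.8 FPKM in hND6, without overlap (log2 fold change 0.19 ± 0.10, limma adjusted p = 0.4). Slc25a15, the ornithine carrier of the urea cycle, also had groups that did not overlap, at 4.47, 4.71 and 5.10 FPKM in mCherry and 5.57, 5.37 and 5.39 FPKM in hND6 (0.18 ± 0.10, limma adjusted p = 0.452). In both genes the gap between the nearest libraries of the groups was smaller than the range within mCherry.

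Slc25a44, a carrier of branched-chain amino acids, stood at 13.3, 14.2 and 16.9 FPKM in mCherry and 15.2, 14.2 and 15.6 FPKM in hND6. Slc25a29, a carrier of basic amino acids, stood at 6.55, 7.57 and 5.59 FPKM in mCherry and 6.52, 6.91 and 7.70 FPKM in hND6. The groups overlapped in both, and the log2 fold changes were 0.02 ± 0.11 and 0.10 ± 0.14. The other ornithine carrier, Slc25a2, was too low to test: it had 12 reads in mCherry and 33 in hND6, with 0.0722, 0.132 and 0.0852 FPKM in mCherry and 0.277, 0.332 and 0.376 FPKM in hND6.

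Among uncoupling protein relatives Slc25a27 (UCP4) was by far the most abundant, and the fourth most abundant member of the family. Uncoupling proteins let protons or other ions cross the inner membrane without ATP synthesis, though for the brain forms this role is debated. Slc25a27 stood at 51.9, 57.2 and 35.4 FPKM in mCherry and 42.3, 37.5 and 42.4 FPKM in hND6. Again mCherry 3 held the lowest value and the other mCherry libraries the highest, and the log2 fold change was -0.21 ± 0.18 (limma adjusted p = 0.62), and with 1 library left out it ran from -0.42 without mCherry 3 (limma adjusted p = 0.0844) to -0.0753 without mCherry 2 (limma adjusted p = 0.869).

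Slc25a14 (UCP5) stood at 6.61, 7.96 and 11.2 FPKM in mCherry and 9.37, 7.90 and 7.91 FPKM in hND6. Slc25a30, known as kidney mitochondrial carrier protein, stood at 8.98, 7.60 and 7.68 FPKM in mCherry and 6.45, 6.82 and 8.70 FPKM in hND6. The groups overlapped in both, with log2 fold changes of -0.01 ± 0.20 and -0.14 ± 0.14. The classical uncoupling proteins carry other symbols and are not members by the rule. Of these Ucp2 stood at 17.3 to 27.7 FPKM in mCherry and 20.6 to 26.6 FPKM in hND6, Ucp3 at 0.206 FPKM or less, and Ucp1, the brown fat protein, was listed at 0 in all libraries but mCherry 3.

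**Figure D3:**
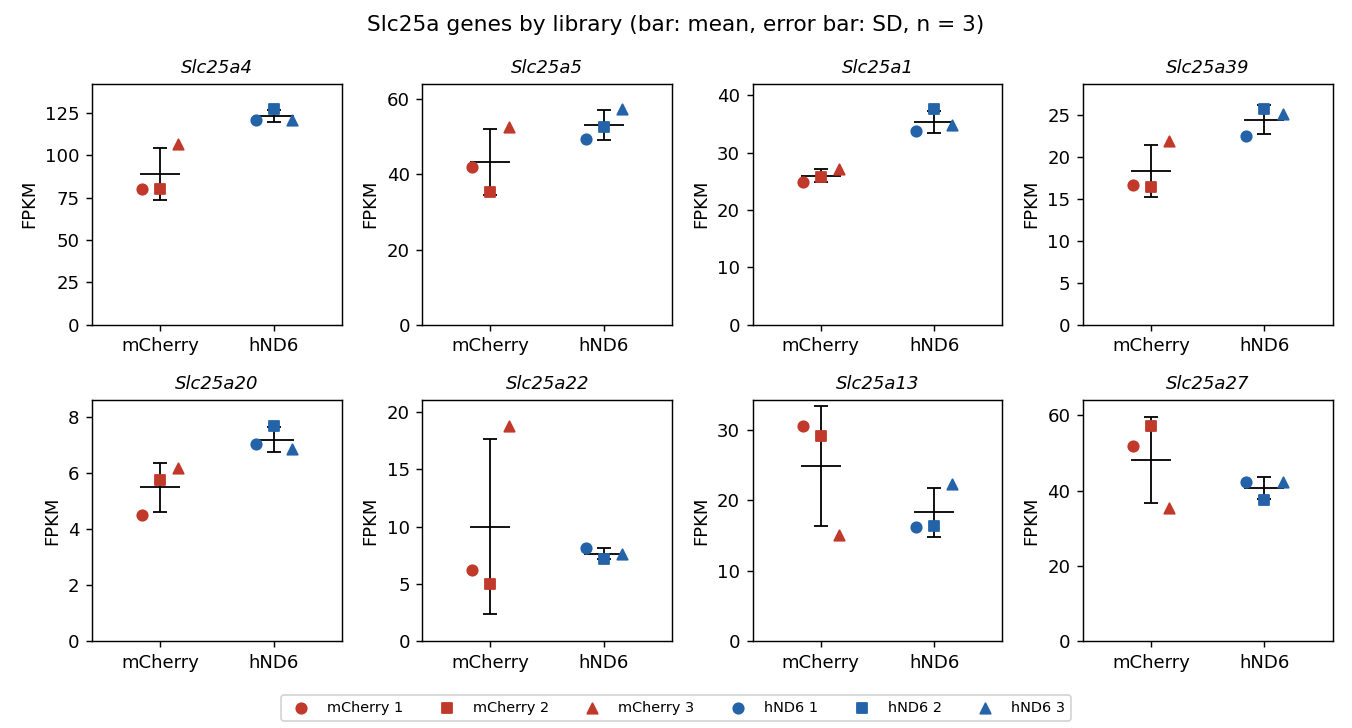
FPKM by library for 8 Slc25a genes, 3 points per group with the mean as a bar and the SD as an error bar. In the panels of Slc25a4, Slc25a1, Slc25a39 and Slc25a20 the groups do not overlap; mCherry 3 lies highest for Slc25a22 and lowest for Slc25a13 and Slc25a27.

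Carriers of carboxylic acids included the member of smallest p. Slc25a1, the citrate carrier that feeds cytosolic fatty acid and sterol synthesis (chromosome 16, 17925211 to 17928219, minus strand), stood at 25.0, 25.8 and 27.2 FPKM in mCherry. In hND6 it stood at 33.9, 37.5 and 34.8 FPKM, and the gap between the groups was wider than the range within either. The log2 fold change was 0.44 ± 0.08, with a 95% interval of 0.25 to 0.62 (limma adjusted p = 0.15). With the span trend removed it was 0.21 (limma adjusted p = 0.39).

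The other carboxylic acid carriers had overlapping groups. The log2 fold change was 0.23 for the oxoglutarate carrier Slc25a11, 0.14 for the dicarboxylate carrier Slc25a10 and -0.26 for the oxodicarboxylate carrier Slc25a21. Slc25a21 spans 484839 bases, the longest gene of the family, and ranged from 11.8 FPKM in mCherry 3 to 25.6 FPKM in mCherry 2. Its fold change ran from -0.59 without mCherry 3 to -0.0517 without mCherry 2, and was 0.0549 with the span trend removed. Slc25a11 ran from 0.11 without mCherry 2 to 0.35 without mCherry 3, and Slc25a10 from 0.0426 without hND6 3 to 0.25 without hND6 1.

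The acylcarnitine carrier Slc25a20, which admits long-chain fatty acids for oxidation (chromosome 9, 108662098 to 108684641), stood at 4.51, 5.77 and 6.19 FPKM in mCherry and 7.06, 7.68 and 6.85 FPKM in hND6. Its groups did not overlap (log2 fold change 0.37 ± 0.14, limma adjusted p = 0.291). Slc25a39, a glutathione carrier, stood at 16.7, 16.4 and 21.9 FPKM in mCherry and 22.5, 25.6 and 25.1 FPKM in hND6, with mCherry 3 just below the lowest hND6 library (0.41 ± 0.13, limma adjusted p = 0.25). Its paralog Slc25a40 stood on the other side without overlap, at 6.44, 5.86 and 6.12 FPKM in mCherry and 5.68, 5.48 and 4.56 FPKM in hND6 (-0.21 ± 0.12, limma adjusted p = 0.433). The difference between the paralogs was not tested, and Slc25a40 has a near-identical copy, Gm5066, of 96.3% identity over part of its transcript.

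Of the iron carriers, Slc25a28 (mitoferrin 2) stood at 20.7, 20.4 and 19.3 FPKM in mCherry and 20.8, 18.5 and 21.1 FPKM in hND6, with a 95% interval of the log2 difference from -0.20 to 0.20. Slc25a37 (mitoferrin 1), the form of red cell precursors, stood at 11.5, 8.30 and 7.07 FPKM in mCherry and 11.0, 12.9 and 9.82 FPKM in hND6, with overlap (0.33 ± 0.19, limma adjusted p = 0.459). Its fold change ran from 0.19 without mCherry 3 to 0.52 without mCherry 1. Red blood cell markers differed between the groups: the 7 genes summed to 180 to 468 FPKM in mCherry and 1365 to 2603 FPKM in hND6. The red cell sum was highest in hND6 2. Slc25a37 and Slc25a38 both serve heme synthesis, and Slc25a37 was highest in hND6 2 but Slc25a38 in hND6 3. In Slc25a37 the second highest library was mCherry 1. The part of red cells in these levels was not tested.

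Of the 7 cofactor carriers, 2 lay above 0 and 5 below. Slc25a17, a carrier of the peroxisomal membrane and the most abundant of them, stood at 28.4, 29.6 and 26.1 FPKM in mCherry and 25.0, 27.4 and 24.7 FPKM in hND6 (log2 fold change -0.12 ± 0.08). Slc25a26, which imports S-adenosylmethionine for methylation in the matrix, stood at 11.8, 14.4 and 13.3 FPKM in mCherry and 11.0, 10.2 and 10.5 FPKM in hND6. The hND6 values were all lower (-0.30 ± 0.10, limma adjusted p = 0.263), and it was the member of smallest p on that side. With the span trend removed, Slc25a26 was at -0.16 (limma adjusted p = 0.594). Slc25a51, the NAD carrier, stood higher in hND6 without overlap by 0.12 ± 0.07 (limma adjusted p = 0.492), or -0.0245 on the constant-sum scale. The carriers of coenzyme A (Slc25a42) and folate (Slc25a32), and Slc25a16, had log2 fold changes from -0.09 to 0.000326.

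Substrates are not assigned here for 9 members, of which 6 were tested. Slc25a46, an outer membrane protein of mitochondrial fusion and fission that underlies an inherited optic atrophy in people, was the most abundant. It stood at 11.8, 12.4 and 13.2 FPKM in mCherry and 10.8, 10.5 and 11.2 FPKM in hND6, without overlap (log2 fold change -0.19 ± 0.08, 95% interval -0.39 to 0.01, limma adjusted p = 0.344). The other 5 tested ranged from -0.19 for Slc25a43 to 0.15 for Slc25a47, all with overlapping groups. The 3 below the filter were Slc25a34 with 168 reads in all, Slc25a48 with 96 and Slc25a54 with 1.

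Fold changes within the family varied with the length of the gene on the chromosome. Of the 10 tested members spanning 3 to 10 kb, 9 had a fold change above 0, and of the 10 spanning 30 to 100 kb, 3 had. The Spearman correlation of log2 fold change with span was -0.65 across the 41 members and -0.54 across 13678 tested protein-coding genes; members share libraries and depth and are not independent. By span, the median of the 10 members of 3 to 10 kb was 0.15 beside 0.17 for all protein-coding genes of that span. It was -0.00323 beside 0.03 for the 17 members of 10 to 30 kb, and -0.09 beside -0.08 for the 10 members of 30 to 100 kb. Slc25a4, Slc25a1 and Slc25a39 span under 10 kb, and their fold changes were 0.29, 0.21 and 0.23 with each library's span trend removed. The 22544-base Slc25a20 was at 0.35 and the 43265-base Slc25a37 at 0.38. The smallest limma adjusted p of a member in that fit was 0.39. In the same fit Slc25a5 went from 0.31 to 0.0865, Slc25a21 from -0.26 to 0.0549, Slc25a13 from -0.39 to -0.20, and Slc25a26 from -0.30 to -0.16.

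**Figure D4:**
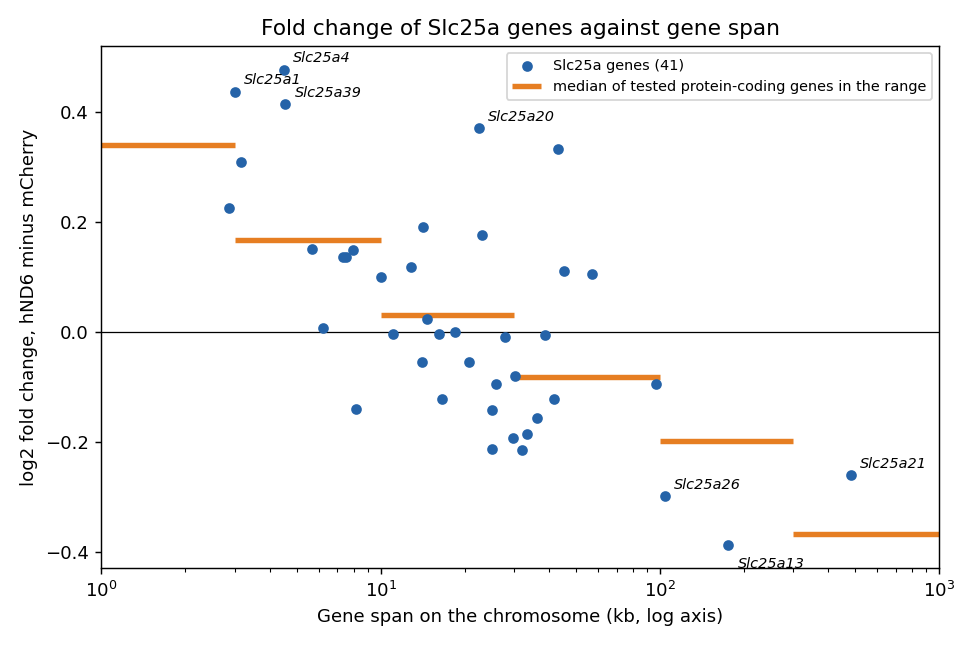
Log2 fold change (hND6 minus mCherry) of the 41 tested Slc25a genes against gene span on a log axis, with orange bars for the median of all tested protein-coding genes in each range of span. Short members lie mostly above 0 and long members below it, near the bars, and Slc25a4, Slc25a20 and Slc25a37 are among those above the bar of their range.

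The spread between libraries was uneven. In 30 of 41 members (73.2%) the SD was larger in mCherry than in hND6, beside 70.7% of all genes tested. Of the 41 members, 8 (19.5%) were highest and 12 (29.3%) lowest in mCherry 3, beside 20.6% and 24.6% of all genes. In hND6 3, 11 of the 41 were highest, beside 17.1% of all genes. Without mCherry 3, groups did not overlap for 12 members on the higher side and 8 on the lower side, in place of 7 and 3. Those counts are 29.3% and 19.5% of the members, where all genes without mCherry 3 gave 19.95% and 21.3%; a smaller group separates more easily.

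Promoter letters of 3 members are printed because they stand for roles met above: the citrate carrier of smallest p, the phosphate carrier, and the acylcarnitine carrier. The sequences are RefSeq's on GRCm38.p6, for the bases before both the RefSeq start and the deposited gene span, 5′ to 3′ on the gene's strand. Of the 47 members 36 had an entry, in 46 windows of the same length around a start. Capitals mark matches on either strand to GCGCA and GCGC with 1 base between them, a core of NRF1 sites, to CCGGAAGT, a core of GABP (NRF2) sites, or to CCAAT; NRF1 and GABP are activators of many nuclear genes for mitochondria.
Slc25a1, chr16:17928220-17928469, minus strand: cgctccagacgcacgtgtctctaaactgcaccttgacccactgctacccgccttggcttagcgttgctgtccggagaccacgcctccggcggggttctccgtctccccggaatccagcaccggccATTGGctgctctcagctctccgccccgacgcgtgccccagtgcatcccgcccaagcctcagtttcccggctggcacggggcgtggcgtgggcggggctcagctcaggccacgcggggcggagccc
Slc25a3, chr10:91124060-91124217, minus strand: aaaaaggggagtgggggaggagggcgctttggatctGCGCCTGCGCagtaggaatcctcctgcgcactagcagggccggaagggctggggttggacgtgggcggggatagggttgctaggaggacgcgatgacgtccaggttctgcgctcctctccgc
Slc25a20, chr9:108661886-108662097, plus strand: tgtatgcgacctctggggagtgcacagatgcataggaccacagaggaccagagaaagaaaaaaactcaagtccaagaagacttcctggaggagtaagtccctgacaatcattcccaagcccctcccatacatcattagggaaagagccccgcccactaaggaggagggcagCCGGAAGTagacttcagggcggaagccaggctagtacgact
The NRF1 core was in 2 member windows (4.35%) beside 4.60% of 32851 windows of all genes, the GABP core in 1 (2.17%) beside 3.89%, and CCAAT in 22 (47.8%) beside 37.4%. Slc25a3 and Slc25a31 were the only members matched to the NRF1 core, and Slc25a20 the only member matched to the GABP core. Slc25a3 and Slc25a20 are thus not typical of the family in these cores. Slc25a1 matched neither core and only CCAAT, as did others of the 19 members with CCAAT. The motifs were picked with the data known, and the matches are descriptions of the letters and not binding sites.

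Genes related to the carriers were listed in 4 groups, and none of their members passed the threshold. Over all genes tested, 48.6% lay above 0, with a median of -0.0102. The part of gene span in the fold changes of these lists was not tested. Of the list of mitochondrial import genes, which is not limited to the insertion of carriers, 6 of 9 tested lay above 0 (median 0.16). Timm29, a subunit of the TIM22 insertase, stood at 11.1, 9.38 and 11.3 FPKM in mCherry and 12.2, 13.0 and 14.3 FPKM in hND6 (log2 fold change 0.31 ± 0.11, limma adjusted p = 0.279). Timm8b, a small chaperone of the intermembrane space, stood at 15.7, 18.1 and 29.0 FPKM in mCherry and 38.1, 25.5 and 29.1 FPKM in hND6, with overlap. Among 5 family relatives under other symbols, the 3 tested (Mtch1, Mtch2 and Ucp2) lay above 0. Mtch1, a carrier relative of the outer membrane, stood at 59.4, 64.9 and 78.2 FPKM in mCherry and 81.3, 80.0 and 81.8 FPKM in hND6 (0.27 ± 0.11, limma adjusted p = 0.33).

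Other transporters of the inner membrane had 7 of 16 genes above 0 (median -0.05), beside 48.6% of all genes. Smdt1, the EMRE subunit of the calcium uniporter, stood at 43.5, 49.2 and 54.3 FPKM in mCherry and 72.9, 72.4 and 76.9 FPKM in hND6 (0.60 ± 0.10, limma adjusted p = 0.143). Micu3, a calcium-sensing regulator of the same channel, stood on the other side without overlap, at 21.9, 23.0 and 24.5 FPKM in mCherry and 19.3, 17.7 and 15.8 FPKM in hND6 (-0.38 ± 0.10, limma adjusted p = 0.199). The pyruvate carrier subunit Mpc1, the most abundant of the list, stood at 63.1, 65.4 and 66.2 FPKM in mCherry and 60.6, 60.3 and 60.8 FPKM in hND6.

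Of the enzymes and pores that share substrates with the carriers, 10 of 13 tested lay above 0 (median 0.16), beside 48.6% of all genes. Groups did not overlap for 3 higher and 1 lower (23.1% and 7.69%), where all genes gave 12.6% and 10.2%. The outer membrane pore Vdac2 stood at 45.8, 39.3 and 46.0 FPKM in mCherry and 50.2, 54.3 and 51.9 FPKM in hND6, without overlap (0.25 ± 0.09, limma adjusted p = 0.276). Glud1, glutamate dehydrogenase, stood at 56.8, 49.1 and 48.6 FPKM in mCherry and 57.7, 61.5 and 59.0 FPKM in hND6, also without overlap (0.21 ± 0.09, limma adjusted p = 0.334). Cpt1c, a neuronal relative of carnitine palmitoyltransferase, stood lower without overlap, at 18.02, 18.6 and 21.1 FPKM in mCherry and 17.96, 16.3 and 16.2 FPKM in hND6 (-0.19 ± 0.09, limma adjusted p = 0.392), and Cpt1a was the third gene higher without overlap. Vdac1, the most abundant of that list, stood at 50.9, 49.6 and 77.8 FPKM in mCherry and 64.6, 56.2 and 62.5 FPKM in hND6, with mCherry 3 the highest library.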

How the data were processed

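Members and gene lists were chosen with earlier results of these data known. The deposited values are FPKM, per the labels, scaled by the authors by exon length and a size factor of each library. In some libraries, such as mCherry 2, that factor differed from the recovered reads in genes. Gene spans and exon lengths come from the deposited gene table. Per the submitters' processing notes, tools were STAR, HTSeq, Trim Galore and CASAVA 1.4 and builds mm10 and GRCm38, without roles. Per-library tables (6) were identical to the joint table. FPKM times exon length gave whole reads (within 0.1 read) for at least 99.99% of values above 0 in each library. The test was limma 3.58.1 in R 4.3.3 on log2(FPKM + 0.5), with an intensity trend, for genes of mean 0.5 FPKM or more. This scale understates changes of low genes. The code was tested on simulated data with known changes. Values by library are given for tested members of the nucleotide, phosphate, amino acid and uncoupling lists, and for the most abundant member and that of smallest p in each other list. Slc25a2, Slc25a40, Cpt1c and other genes named beyond that rule were chosen after their values were seen. Values of 1 tested member are not reported here singly; it stays in the counts. Gene copies were sought with blastn 2.17.0 among GENCODE transcripts at 95% identity over 20% of the length. Alternatives were pseudocounts, filters, scalings, no trend, robust fit, replicate block, voom, span trend removed, and leaving out each library.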

Additional observations from a re-analysis of the deposited data

How the results depend on the processing

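All 41 members were refitted under 20 other settings, fewer for Slc25a32, which a filter of 1 FPKM removed; 2 of the settings, leaving out mCherry 3 with hND6 1 or hND6 2, were chosen after the data were seen. The count of members past the threshold was 0 in each, except 1 (Slc25a4, 0.61) without mCherry 3, so it ran from 0 to 1 over the libraries left out. The count over all genes, 7 higher and 0 lower, ran from 0 to 116 higher and from 0 to 15 lower when each library was left out, with the highest counts without mCherry 3. It was 0 higher with no filter, with the replicate block and with voom, 1 without mCherry 3 and hND6 1, and 0 without mCherry 3 and hND6 2. Members with non-overlapping groups ran from 7 to 12 higher and from 4 to 8 lower with each library left out. These are 17.1% to 29.3% and 9.76% to 19.5% of the members, where all genes gave 15.0% to 19.95% and 12.8% to 21.3%. They were 14 and 10 without mCherry 3 and hND6 1 (all genes 26.2% and 27.5%), and 14 and 9 without mCherry 3 and hND6 2 (24.7% and 25.0%). On the constant-sum scale the median of all genes moved to -0.15, that of the members to -0.15, with 11 of 41 above 0. There, 4 members did not overlap on the higher side and 8 on the lower (9.76% and 19.5%), where all genes gave 5.37% and 18.9%. The median over members ran from -0.02 to 0.03 with each library left out. The direction changed for Slc25a3 (-0.00923) and Slc25a51 (-0.0245) on the constant-sum scale, and for Slc25a11 (-0.00517), Slc25a12 (0.0310) and Slc25a47 (-0.0119) with the span trend removed; the cause was not tested. No direction was counted for members within 1 SE of 0. Same-numbered libraries correlated by -0.42, 0.36 and -0.20 in their deviations from group means, and differently numbered ones by -0.45 to 0.56. With 3 libraries per group the deviations depend on each other, so these values cannot decide whether the replicate numbers mark pairs. With the replicate block the smallest limma adjusted p of a member was 0.413. Members tested had 282 reads or more over the 6 libraries.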
